A study of Mus musculus with 2 samples.

Results

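The genes analysed here handle thyroid hormone in the cell. They are the receptors Thra and Thrb, the deiodinases Dio1, Dio2 and Dio3, and the transporters Slc16a10 and Slco1c1. They were chosen by symbol and not by a rule on their values, although earlier results of these data were known. They are 7 of the 23361 genes with values in the table. The series holds an RNA-Seq library of brown preadipocytes (D0) and another of the brown adipocytes grown from them (D7), 1 for each stage. The cells were taken from interscapular brown adipose tissue of newborn C57BL/6 mice (C57BL/6J in the paper's methods). The labels name primary cultures, whereas the paper's methods describe cells immortalized with large T. Whether animals were pooled is not given in the sources used here. The labels describe growth in 20% FBS, then medium with insulin (0.1 μM), T3 (1 nM) and less serum (10%) from 4 days before induction. By this account the D0 cells had already been given T3, while the paper's methods add T3 from day 0. From day 0 both accounts add IBMX, dexamethasone and indomethacin for 2 days, with 0.5 mM, 2 μg/ml and 0.125 mM in the labels. The paper's methods differ in amounts, with 0.5 μM dexamethasone, 20 nM insulin and culture of the preadipocytes in 10% FBS. They also keep insulin and T3 in the medium after these 2 days. The D0 library is thus a sample of cells before IBMX, dexamethasone and indomethacin. The D7 library is one of cells 7 days after the start of these inducers.

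The thyroid gland releases mainly the prohormone T4. Cells take up T4 and the active hormone T3 through membrane transporters, and deiodinases then remove an iodine. The type 2 enzyme (Dio2) makes T3 from T4, the type 3 enzyme (Dio3) inactivates both, and the type 1 enzyme (Dio1) can do either. T3 binds the nuclear receptors TRα (Thra) and TRβ (Thrb), which act on DNA mostly as dimers with retinoid X receptors. In brown adipose tissue, Dio2 is known for its induction by cold and cAMP, and T3 for its part in thermogenesis.

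All deiodinases are selenoproteins, and a TGA codon in the reading frame is read as selenocysteine in their catalytic centre. The coding sequences around this codon are shown because they are the part that the 3 enzymes have in common. They were read from GENCODE M21 transcripts on mm10, with the codon in capitals and 5′ to 3′ on the strand of the gene.
Dio1: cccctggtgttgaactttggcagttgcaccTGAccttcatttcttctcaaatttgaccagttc
Dio2: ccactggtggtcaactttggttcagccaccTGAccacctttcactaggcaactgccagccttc
Dio3: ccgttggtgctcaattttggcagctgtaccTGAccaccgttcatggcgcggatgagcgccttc
The codon lies at chr4:107297700-107297702 on the minus strand in Dio1, where it is codon 126 of 257. In Dio2 it lies at chr12:90729823-90729825 on the minus strand and is codon 130 of 266. In Dio3 it lies at chr12:110279739-110279741 on the plus strand and is codon 170 of 304. Of the 63 bases shown, 36 are identical between Dio1 and Dio2, 37 between Dio1 and Dio3, and 41 between Dio2 and Dio3. Dio2 alone of the 3 has a second in-frame TGA, codon 263, with 3 codons after it. Over whole transcripts the longest identical stretch between any pair of deiodinases was 13 bases. Thra and Thrb shared a stretch of 26 bases, but 0 of their windows of 90 bases, the read length, came within the 5 mismatches that the alignment allowed. Reads of the annotated transcripts of the paralogs were thus separable by sequence.

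The promoter of Dio2 is shown because it was the only one of 7 promoters of these genes with the motif TGACGTCA, the full cAMP response element, which is the same on both strands. It was taken from RefSeq on GRCm38.p6, at chr12:90739039-90739288 on the minus strand, as the 250 bases before the start, with the motif in capitals.
Dio2 promoter: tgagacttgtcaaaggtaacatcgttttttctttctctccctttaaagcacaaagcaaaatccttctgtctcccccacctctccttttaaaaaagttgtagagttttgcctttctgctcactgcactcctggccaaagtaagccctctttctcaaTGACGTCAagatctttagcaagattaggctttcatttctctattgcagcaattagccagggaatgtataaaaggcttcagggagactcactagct
The motif begins 95 bases before this RefSeq start. In GENCODE M21, Dio2 starts further downstream, at 90738438. The motif was found in 508 of 32851 mouse promoters of this length (1.55%). The receptor half-site AGGTCA, searched on both strands, was found in 4607 promoters (14.0%). Among 7 promoters of the 6 members in the RefSeq table it was found once, 184 bases before the upstream start of Thrb. Thra had no entry in that table. A match is a description of the letters and not a binding site.

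The values are FPKM, fragments per kb of transcript and per 1000000 fragments, so that levels can be compared between genes. A ratio is the FPKM at D7 over that at D0. A gene was called higher at a ratio of at least 2.0 and lower at a ratio of at most 0.5, the thresholds that the study also used. With 1 library per stage no test across replicates was possible, and no p-value is given. The denominators of the FPKM values were recovered from 644 genes with a single exon, as 21471087 fragments for D0 and 18265369 for D7. From these the fragments behind each value and 95% intervals (exact Poisson for a level, exact Clopper-Pearson for a ratio) were computed. These cover counting error only, and not the spread between cultures.

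Of the 7 genes, 4 were higher at D7 (Thrb, Slc16a10, Dio2 and Dio3), 0 were lower, Thra was neither, and Dio1 and Slco1c1 were listed at 0 in both libraries. Of the 14986 genes above 0 in both libraries, 18.5% were higher and 13.2% were lower by the same rule. Of the 23361 genes with values, 28.6% were listed at 0 in both libraries. With a floor of 0.01 and each library divided by its median, 2836 genes of the table were higher and 3832 lower. These are the counts that the paper gives. That setting also gives a ratio to genes listed at 0, whereas the rule used here, with 2767 higher and 1980 lower, does not. The same 4 members were higher in both. Without that floor and division, the median ratio was 5.55 over the 5 measured members. It was 1.01 over the 14986 genes above 0 in both libraries. At D0, Thra stood far above the other measured members, which lay between 0.376 and 0.662 FPKM. At D7 the order was Thra, then Slc16a10 and Thrb, then Dio3 and Dio2. In bulk RNA, a change in the number of cells of a type and a change in RNA per cell cannot be told apart.

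**Figure D1:**
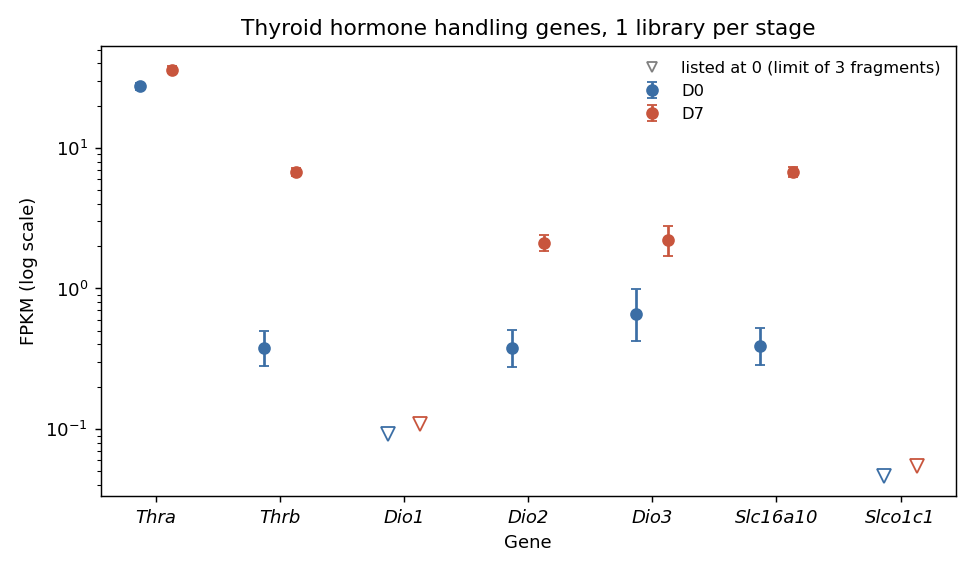
FPKM of the 7 genes on a log scale, with D0 in blue and D7 in red, 1 library each. Bars are exact Poisson 95% intervals and open triangles mark the level of 3 fragments for genes listed at 0, and Thra lies above the other genes in both libraries, at 27.5 and 36.0 FPKM.

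Thra encodes the receptor TRα1 and, by alternative splicing, TRα2, which does not bind T3. The gene lies at chr11:98740638-98769006 on the plus strand. Thra was at 27.5 FPKM at D0 (95% interval 25.9 to 29.1) and at 36.0 FPKM at D7 (34.1 to 38.0). The ratio was 1.31 (1.21 to 1.42), from 1219 and 1357 fragments. This excludes 1 for counting error but is well under 2.0, and 33.1% of genes had a higher ratio. The ratio was 1.03 when values were raised to a floor of 0.01 and each library was divided by its median. The table gives 1 value for the gene under a transcript that ends at 98765111, so TRα1 and TRα2 could not be separated. The longer annotated transcript, which ends at 98769006, shares 263 exon bases with Nr1d1 on the opposite strand, of which 0 lie within the locus in the table.

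Thrb encodes the receptors TRβ1 and TRβ2, which have separate start sites. The gene lies at chr14:17660261-18038090 on the plus strand. Thrb was at 0.376 FPKM at D0 (0.280 to 0.501) and at 6.74 FPKM at D7 (6.26 to 7.24). The D7 library was thus higher by a ratio of 17.9 (13.4 to 24.4), and 1.89% of genes had a higher ratio. This rested on about 49 fragments at D0 and 741 at D7 with the length of the named transcript, or 35 and 536 with that of the long transcript from the upstream start. The named transcript begins at the downstream start, 17981529, but the locus in the table spans both, so the 2 receptor forms were not separated.

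The level of Thra was 73.0 times that of Thrb at D0 (54.9 to 99.2) and 5.34 times at D7 (4.88 to 5.85). As a share of the summed FPKM of both receptors, Thra was 98.6% at D0 and 84.2% at D7, and the sum went from 27.8 to 42.7 FPKM. Thra therefore remained the more abundant receptor RNA in the D7 library.

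Dio2 lies at chr12:90724552-90738438 on the minus strand, and its enzyme makes T3 inside the cell. Dio2 was at 0.380 FPKM at D0 (0.278 to 0.507) and at 2.11 FPKM at D7 (1.84 to 2.41). The ratio was 5.55 (4.02 to 7.80), from about 46 and 217 fragments, and 5.70% of genes had a higher ratio. Dio2 shares 100 exon bases with Gm26512 on the opposite strand. Whether strand was used in counting is not given in the sources used here, and 11 of its 5726 windows of 90 bases are in both genes.

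Dio3 lies at chr12:110279068-110281097 on the plus strand, has a single exon, and encodes the inactivating enzyme. Dio3 was at 0.662 FPKM at D0 (0.424 to 0.985) and at 2.21 FPKM at D7 (1.71 to 2.80). The ratio was 3.34 (2.07 to 5.56), from 24 and 68 fragments, and 10.0% of genes had a higher ratio. The RNAs of the activating and of the inactivating enzyme were thus both higher at D7, while the enzymes were not measured.

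The changes of the activating and the inactivating enzyme were not distinguishable at this depth. The ratio of Dio2 was 1.66 times that of Dio3, with an interval of 0.900 to 3.01. At D0, the level of Dio2 was 0.574 times that of Dio3 (0.343 to 0.984), and at D7 it was 0.955 times (0.724 to 1.27). As a share of their summed FPKM, Dio2 made up 36.5% at D0 and 48.9% at D7. For the levels, the interval thus excluded 1 at D0 and included it at D7.

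Dio1, the enzyme of liver, kidney and thyroid, lies at chr4:107291465-107307169 on the minus strand. It was listed at 0 in both libraries, which allows a level of up to 0.0925 FPKM at D0 and 0.109 FPKM at D7 as the level of 3 fragments, or 0.114 and 0.134 FPKM as the upper end of the exact Poisson interval. Of 5 hepatocyte markers, Alb, Ttr and F2 were also listed at 0 in both libraries. Apoa1 had 1 fragment at D0 and 3 at D7, and Cyp3a11 had 0 and 1.

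Slc16a10 encodes MCT10, a transporter of T3 and of aromatic amino acids, and lies at chr10:40033532-40142258 on the minus strand. Slc16a10 was at 0.389 FPKM at D0 (0.285 to 0.527) and at 6.75 FPKM at D7 (6.24 to 7.29). The ratio was 17.4 (12.8 to 24.1), from about 44 and 643 fragments, and 1.98% of genes had a higher ratio. This was close to the receptor Thrb in both level and change. The ratio of Thrb was 1.03 times that of Slc16a10 (0.661 to 1.61), and at D7 the level of Thrb was 0.998 times that of Slc16a10 (0.897 to 1.11).

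Slco1c1 encodes OATP1C1, a T4 transporter known from the blood-brain barrier, and lies at chr6:141524368-141570177 on the plus strand. It was listed at 0 in both libraries, which allows up to 0.0466 FPKM at D0 and 0.0548 FPKM at D7 as the level of 3 fragments, or 0.0573 and 0.0674 FPKM as the upper end of the interval. Of 7 endothelial markers, Tie1 and Cldn5 were listed at 0 in both, and of the 5 above 0 in both 2 were higher and 1 was lower. Tek went from 0.520 to 1.62 FPKM and Cdh5 from 0.159 to 0.0288 FPKM. Kdr was at 0.655 FPKM at D7 with a ratio of 2.18, and Emcn at 0.581 FPKM at D0 with a ratio of 0.516. The list summed to 1.58 FPKM at D0 and 2.62 FPKM at D7.

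**Figure D2:**
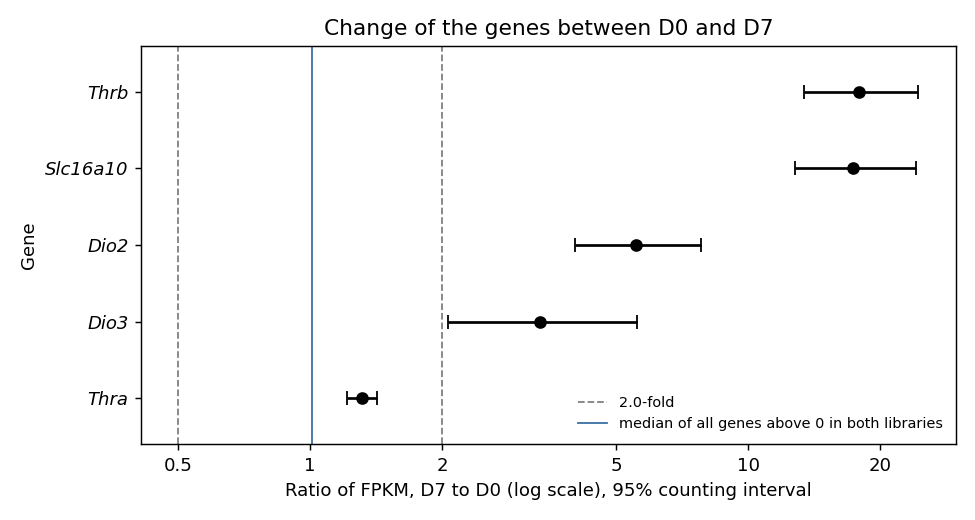
Ratio of FPKM at D7 to D0 on a log scale for the 5 genes above 0 in both libraries, with exact Clopper-Pearson 95% intervals. Dashed lines mark 2.0-fold in either direction and the blue line the median of all genes (1.01), and the intervals of Thrb, Slc16a10, Dio2 and Dio3 lie above 2.0 while that of Thra lies below it.

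Among the 10 pairs of these 5 genes, the intervals of the ratio of ratios excluded 1 except for Thrb with Slc16a10 and Dio2 with Dio3. At D0 the levels of Thrb, Dio2 and Slc16a10 could not be put in order, and the interval of Dio3 over Slc16a10 was 0.990 to 2.86. The genes nearest to each member on log2(FPKM + 0.1) over the 2 libraries were also listed. Symbols that begin with Gm or Mir, end in Rik or occur more than once were left out of this search. Among the remaining genes, Slc16a10 was the nearest to Thrb (distance 0.0378), and Thrb to Slc16a10. Cables1, a cyclin-dependent kinase cofactor, came next for both, at 0.353 FPKM at D0 and 6.25 FPKM at D7. The nearest to Dio2 was Clec12a, a lectin receptor of myeloid cells. For Dio3 they were Hist1h4c, a histone gene with near-identical copies and hence an uncertain value, and the netrin receptor gene Unc5a. For Thra they were Sec11c, a signal peptidase subunit, and Ankrd46. With 2 libraries this likeness is of a pair of values only.

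The other transporters of thyroid hormone moved in both directions. Of 16 genes, 10 were above 0 in both libraries, of which 4 were higher, 2 were lower, and the median ratio was 1.04. Slc7a5, the light chain of the amino acid transporter LAT1 that also carries T3, was lower, with 40.7 FPKM at D0, 13.9 FPKM at D7 and a ratio of 0.341 (0.316 to 0.369). Its heavy chain Slc3a2 went from 71.5 to 45.1 FPKM, with a ratio of 0.631. Slc7a8, the light chain of LAT2, was higher, from 0.677 to 1.78 FPKM with a ratio of 2.63 (1.91 to 3.66). Slco1a4, another organic anion transporter, went from 0.0128 FPKM, a single fragment, to 1.71 FPKM, with a ratio of 134 (23.6 to 5343). Slco2b1 and Slco4a1 were the other higher genes and Slco5a1 the other lower one, all under 1 FPKM. Slco5a1 rested on 7 fragments at D0 and 2 at D7, and the interval of its ratio (0.0372 to 1.93) included 1. Their relatives Slco1b2 and Slco4c1 were listed at 0 in both libraries.

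The partners of the receptors were abundant in both libraries. Rxra went from 20.9 to 32.4 FPKM and Rxrb from 14.5 to 20.3 FPKM, with ratios of 1.55 and 1.40. Rxrg was at 0 in the D0 library and at 2.05 FPKM at D7 (1.60 to 2.57), a value at least 28.4-fold higher against the level of 3 fragments in the D0 library, without the counting error at D7. Of 6 genes of the corepressor complex, which holds target genes silent without T3, 0 were higher and 0 were lower, with a median ratio of 1.11. Among these were Tbl1x (34.7 and 37.2 FPKM), Hdac3 (34.7 and 34.8 FPKM) and Ncor1 (18.4 and 25.7 FPKM). Of 8 coactivators, 2 were higher and 0 were lower, with a median ratio of 1.22. These were Ncoa1 (SRC-1), from 3.04 to 8.43 FPKM with a ratio of 2.78 (2.49 to 3.10), and the acetyltransferase Kat2b, from 7.82 to 15.7 FPKM with a ratio of 2.01 (1.84 to 2.21). The call of Kat2b was lost under each other scaling, with ratios of 1.98 as TPM, 1.99 over the median ratio, 2.00 over a trimmed mean ratio (just under the threshold) and 1.58 with the floor of 0.01 and the library median.

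The machinery that makes selenoproteins was present in both libraries. Of 9 genes, 1 was higher and 0 were lower, with a median ratio of 1.09. This was Sepsecs, which makes selenocysteine on its tRNA, from 3.60 to 7.35 FPKM with a ratio of 2.04 (1.80 to 2.32), or 1.60 with the floor of 0.01 and the library median. The Dio2 protein is degraded after ubiquitination. Of 11 genes of this step in the table, 0 were higher and 1 was lower, with a median ratio of 0.831. This was Wsb1, the adaptor of the ubiquitin ligase for the Dio2 enzyme, from 36.5 to 17.5 FPKM with a ratio of 0.480 (0.439 to 0.523). The deubiquitinases Usp33 (13.7 and 19.3 FPKM) and Usp20 (5.15 and 7.85 FPKM), which rescue the enzyme, had ratios of 1.41 and 1.52.

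Of 6 genes for binding or inactivating the hormone in the cell, 2 were above 0 in both libraries. Sult1a1, a sulfotransferase that accepts iodothyronines among other phenols, went from 0.117 FPKM, 3 fragments, to 114 FPKM, with a ratio of 975 (333 to 4729). Crym, a cytosolic T3-binding protein, had 1 fragment in each library. The serum carriers Ttr, Serpina7 and Alb were listed at 0 in both libraries. Of 11 genes of hormone synthesis and the TSH axis, 1 was higher and 1 was lower of 3 above 0 in both. Tshr, the receptor for thyrotropin, which adipocytes are also known to carry, was higher, with 0.225 FPKM at D0, 4.89 FPKM at D7 and a ratio of 21.8 (13.9 to 36.1). Tg, the thyroglobulin gene, was lower, with 0.519 FPKM at D0, 0.126 FPKM at D7 and a ratio of 0.243.

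Of 25 genes known to respond to T3 in some tissue, 19 were above 0 in both libraries, of which 13 were higher and 1 was lower, with a median ratio of 8.36. Hr, a corepressor gene that is a direct target of T3 in brain, went from 0.369 to 9.95 FPKM, with a ratio of 27.0 (19.8 to 37.7). Klf9, a transcription factor gene, went from 8.21 to 53.0 FPKM, with a ratio of 6.45 (5.97 to 6.98). With the floor of 0.01 and the library median its ratio was 5.05, the value in the paper. Gpd2, the mitochondrial glycerol phosphate dehydrogenase, went from 9.88 to 82.5 FPKM (ratio 8.36) and the pacemaker channel gene Hcn2 from 0.772 to 4.34 FPKM (ratio 5.62). Many other members make fat and are also known to respond to other signals of adipocyte differentiation. These were Thrsp (1.25 and 3763 FPKM), Me1 (66.2 and 1881 FPKM), Fasn (41.2 and 1592 FPKM), Acaca (12.9 and 394 FPKM), Scd1 (64.9 and 10775 FPKM) and the regulators Srebf1 (24.2 and 146 FPKM) and Mlxipl (0.0134 FPKM, a single fragment, and 30.5 FPKM). The coactivator gene Ppargc1a went from 0.0370 to 4.41 FPKM, with a ratio of 119. Ucp1, the uncoupling protein gene, was listed at 0 in the D0 library and reached 4.57 FPKM at D7. Pck1, the gluconeogenic enzyme gene, was also higher, but under 1 FPKM. Atp2a2, a calcium pump gene, and Cpt1a, a gene of fatty acid oxidation, were neither, with ratios of 0.695 and 0.634. Gh and Myh6 were listed at 0 in both libraries.

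**Figure D3:**
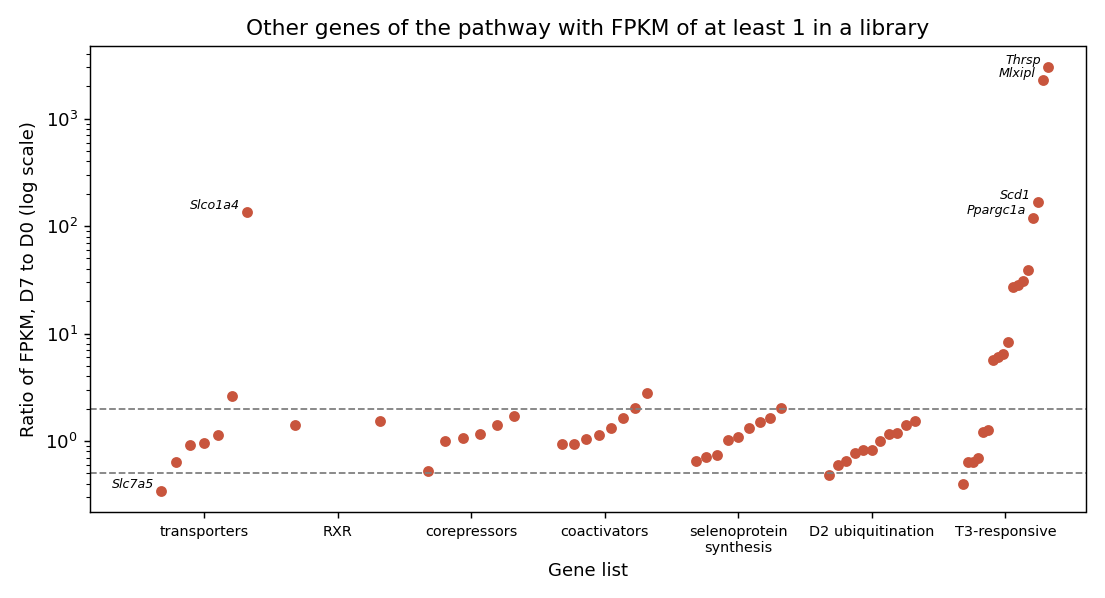
Ratio of FPKM at D7 to D0 on a log scale, 1 point per gene, by list. Genes above 0 in both libraries and at 1 FPKM or more in a library are shown. The lists are the other transporters, RXR, corepressors, coactivators, selenoprotein synthesis, ubiquitination and T3-responsive genes. The remaining lists, with Sult1a1 and Tshr among them, are not drawn. Dashed lines mark 2.0-fold in either direction, and the cofactor, selenoprotein and ubiquitination lists lie mostly between them while the T3-responsive genes reach up to 3017 for Thrsp.

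The cells of both libraries were checked against markers. Of 9 brown adipocyte markers, the 6 above 0 in both libraries were all higher at D7, and Ucp1, Cidea and Elovl3 were listed at 0 at D0. Of 9 preadipocyte or fibroblast markers, 5 were lower and 1 was higher, and 5 of 5 proliferation markers were lower (51.2 FPKM summed at D0, 10.4 FPKM at D7). Macrophage markers moved with the 4 higher members. Of 7 in the table, 7 were higher, by ratios of 2.57 to 35.8, and they summed to 130 FPKM at D0 and 424 FPKM at D7. The glial markers Gfap and Aqp4 were at most at 0.0367 FPKM, although the less specific Aldh1l1 went from 7.18 to 115 FPKM. The part of macrophages, glia or the loss of dividing cells in the values of the members was not tested.

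**Figure D4:**
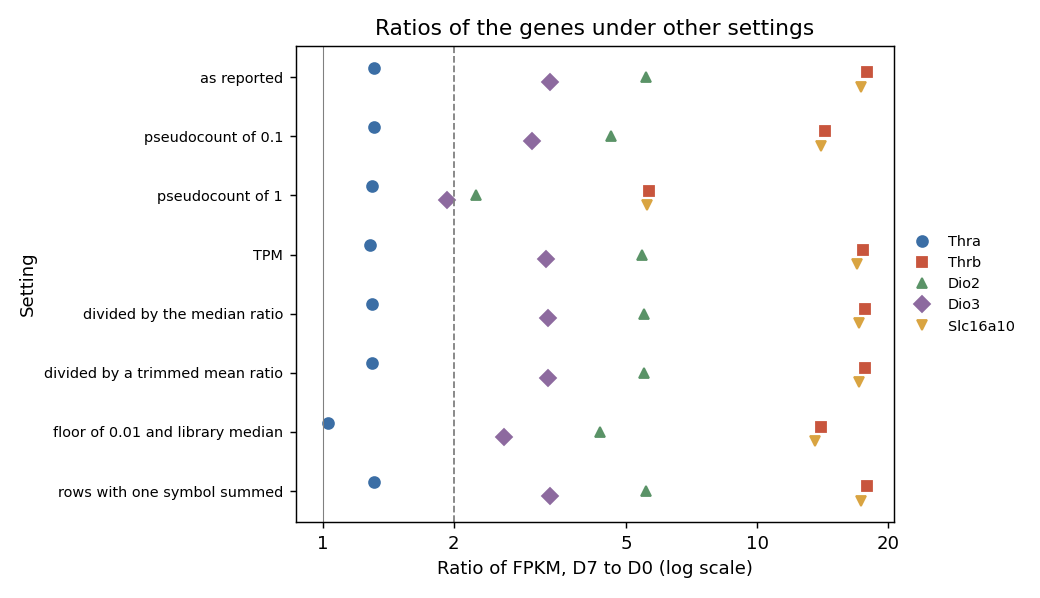
Ratio of FPKM at D7 to D0 on a log scale for the 5 measured genes as reported and under 7 other ways of computing it, 1 symbol per gene, with a dashed line at 2.0-fold. All ratios stay above 1, and with a pseudocount of 1 that of Dio3 comes to 1.93, under 2.0.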

How the data were processed

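RNA-Seq was analysed for 2 libraries, 1 per stage. The authors removed duplicate and rRNA reads, aligned the others to mm10 and to gene sequences (SOAP2 in the paper's methods, Bowtie2 in the submitters' processing notes), and deposited a single FPKM value for each gene in each library. The kit degrades the second strand, but the use of strand in counting is not given in the sources used here. The table has 27324 rows, of which 3963 without a value were left out. FPKM values were used without rescaling, a pseudocount or a filter, and genes listed at 0 in a library got no ratio.

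A length correction (179 bp at D0, 182 bp at D7) and a denominator were chosen so that values of up to 20 fragments in single-exon genes of at least 600 bp were whole within 0.1. This held for 100% of 92 values at D0 and 97 at D7, against 21.9% and 26.0% with shuffled lengths. Spliced genes were given the length of the named or the longest coding transcript, so their fragments are approximate. The steps were tested on simulated data.

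All 7 members are named. Of each of 12 lists, genes at 1 FPKM or more in a library and past 2.0-fold are named, or else up to 4 with the highest levels. For each member, the 2 nearest genes are named. A few genes under this rule are not reported here by name, but are included in the counts. Other named genes, such as those listed at 0 or the deubiquitinases, were picked once their values had been seen. The members and lists were chosen with earlier results of these data known. Alternatives were pseudocounts, scalings, filters, summed rows and a threshold of 4.0. The tools were Python 3.11.15 with scipy 1.17.1, numpy 2.4.6, matplotlib 3.10.9 and pandas 2.3.3.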

Additional observations from a re-analysis of the deposited data

How the results depend on the processing

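Thrb, Slc16a10, Dio2 and Dio3 had ratios above 1 under all 7 other ways of computing them, and Thra too. With a pseudocount of 1 the ratios came to 5.62 for Thrb, 5.58 for Slc16a10, 2.25 for Dio2 and 1.93 for Dio3, since the constant exceeds their D0 levels, and 3 of the members were higher by 2.0-fold in place of 4. At a threshold of 4.0, also 3 were higher, and the lower genes of the pathway lists came to 1 in place of 6. With a floor of 0.01 and each library divided by its median, every ratio of genes above the floor was multiplied by 0.783, a shift of -0.35 on the log2 scale. Thra then had a ratio of 1.03, and the lower genes of the pathway lists came to 14. Of all genes, 3832 were then lower. Also of all genes, 1533 were higher and 1021 lower with a pseudocount of 1, and 1211 and 578 at the threshold of 4.0. The remaining counts stayed within 1.5 times those reported.

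The spread between cultures is unknown, since each stage had 1 library, and no gene has a replicate check. No paired analysis was possible because the stages have 1 library each. The 24 fragments of Dio3 and the 44 to 49 of Thrb, Dio2 and Slc16a10 at D0 limit the precision of their ratios.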

Other observations

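Dio3 lies at the end of an imprinted domain on chromosome 12, and the other genes of this domain did not move as 1 group. Of 6 genes, 2 were higher and 1 was lower at D7. Dlk1, the preadipocyte factor gene at the far end, was at 3.57 FPKM at D0 and at 38.5 FPKM at D7, with a ratio of 10.8 (95% counting interval 8.91 to 13.2). Dio3os, the RNA transcribed away from Dio3, went from 0.127 FPKM, 3 fragments, to 1.10 FPKM, 24 fragments, with a ratio of 8.64 (2.63 to 44.8). Rian, expressed from the maternal chromosome, was lower, from 158 to 73.1 FPKM with a ratio of 0.464. Meg3 and Mirg, also maternal, had ratios of 1.22 and 0.528, and Rtl1 stayed under 1 FPKM.

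Around Thra, the ratios were near 1. Nr1d1, the circadian repressor gene on the opposite strand, went from 18.6 to 16.9 FPKM, Med24 from 12.6 to 11.7 FPKM and Msl1 from 16.7 to 17.1 FPKM.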
